A study of Mus musculus with 16 samples.

Results

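Noggin (*Nog*), gremlin 1 (*Grem1*), follistatin (*Fst*), follistatin-like 1 (*Fstl1*), BMP-binding endothelial regulator (*Bmper*), twisted gastrulation (*Twsg1*) and *Nbl1* encode secreted proteins that bind BMPs, activins or their partners outside the cell. These 7 genes were taken by symbol from the 55414 genes counted in an RNA sequencing experiment on mouse lung endothelial cells (MLECs). The experiment compared how cells with and without endoglin (ENG), a co-receptor for BMP9, respond to this ligand. All 7 symbols were found and all 7 genes could be tested.

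MLECs were selected on beads coated with antibodies to CD31 and then ICAM2, from mice that carried *Eng* fl/fl, *Rosa26-CreERT2* and the Immorto transgene, so every group consists of conditionally immortalised cells with a floxed *Eng*. From each of 4 isolations, cells given vehicle (Ctrl) and cells given 4-OH-tamoxifen to delete *Eng* (KO) were starved of serum and treated for 90 min. Ctrl cells received PBS or BMP9 held by monomeric soluble ENG (Ctrl PBS and Ctrl sENG(M):BMP9), and KO cells received PBS or BMP9 bound to its prodomain (KO PBS and KO pro:BMP9). The dose of either ligand was 0.2 ng/ml, counted as the growth factor domain (GFD). Soluble ENG was in large excess over BMP9 in the Ctrl sENG(M):BMP9 group, and its own part in the responses was not tested. Each of the 4 groups holds 4 libraries, 16 in all. Loss of *Eng* cannot be told apart from exposure to 4-OH-tamoxifen, nor the genotype from the form of the ligand, because they always coincide. The culture medium held interferon-γ and SB431542, an inhibitor of ALK5, until the cells were seeded for the experiment.

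BMPs are secreted dimers that bring type I and type II receptor kinases together, which phosphorylate SMAD1 and SMAD5. Noggin and the DAN family, to which gremlin 1 and NBL1 belong, are cystine-knot proteins that occupy the receptor-binding surfaces of a BMP. Follistatin wraps around activins, whereas BMPER and twisted gastrulation work with chordin-type proteins and can hinder or aid BMP signalling depending on the setting. In endothelium, BMP9 signals through ALK1, and known antagonists such as noggin bind BMP2 and BMP4 much better than BMP9.

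The genes lie apart in the genome (GRCm39, coordinates as deposited). *Nog* is at chr11:89191464-89193158 on the minus strand, *Grem1* at chr2:113576509-113588991 (minus), *Fst* at chr13:114588826-114595487 (minus) and *Nbl1* at chr4:138809595-138820304 (minus). *Fstl1* is at chr16:37597235-37656876 (plus), *Bmper* at chr9:23134372-23396496 (plus) and *Twsg1* at chr17:66228967-66258221 (minus). In the GENCODE vM39 annotation of this build *Nog* is a gene of 1 exon, and no other gene overlaps *Nog*, *Grem1*, *Fstl1*, *Bmper* or *Nbl1*. *Fst* is overlapped on the opposite strand by 2 lncRNA genes and *Twsg1* by 1, and whether reads were counted by strand is not given in the sources used here. Because the results turn most on *Nog*, the RT-qPCR primers for it are shown. Both lie within its coding sequence, and the stretch they span has 113 bases (chr11:89192655-89192767).
Forward primer (chr11:89192746-89192767): gccagcactatctacacatccg
Reverse primer (chr11:89192655-89192676): cgtctcgttcagatccttctcc

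RefSeq promoter sequences (build GRCm38.p6) were matched for 5 of the 7 genes, *Grem1*, *Fstl1*, *Bmper*, *Twsg1* and *Nbl1*. The 250 bases before the start were searched on both strands for GGCGCC, a GC-rich palindrome that BMP-activated SMADs can bind, and for CAGAC, the SMAD box. No match of the first overlapped one of the second. *Nbl1* and *Grem1* each hold GGCGCC 1 time, which 9.54% of 27025 promoters of this length do, and *Fstl1*, *Bmper* and *Twsg1* do not. CAGAC was found in *Grem1* (1 time) and *Twsg1* (2 times), and is in 42.1% of all promoters. Such matches describe the letters and are not shown to be binding sites. The GC content of the *Nbl1* stretch is 77.6% and that of *Grem1* 72.0%, against a median of 52.0% over all promoters. They are printed because both hold GGCGCC while only *Nbl1* passed the test for a response to the ligand; capitals mark the motifs.
*Nbl1* (GRCm38.p6, chr4:139092971-139093220, minus strand): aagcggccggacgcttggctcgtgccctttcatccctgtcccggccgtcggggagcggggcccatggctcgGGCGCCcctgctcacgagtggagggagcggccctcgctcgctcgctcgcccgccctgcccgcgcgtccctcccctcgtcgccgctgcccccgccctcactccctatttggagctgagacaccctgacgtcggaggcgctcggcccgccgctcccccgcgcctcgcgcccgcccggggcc
*Grem1* (GRCm38.p6, chr2:113758649-113758898, minus strand): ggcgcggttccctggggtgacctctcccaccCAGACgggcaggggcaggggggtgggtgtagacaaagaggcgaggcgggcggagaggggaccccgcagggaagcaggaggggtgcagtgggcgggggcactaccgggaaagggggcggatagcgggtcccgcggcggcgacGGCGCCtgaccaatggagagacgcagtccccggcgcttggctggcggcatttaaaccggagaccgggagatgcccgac

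Library totals lay between 14869115 and 17242117 counts, so that 3 counts, the floor used here, correspond to 0.173 to 0.207 CPM (counts divided by the TMM-adjusted library size). *Eng* had 6253 to 9039 counts in Ctrl PBS and 9023 to 11585 in Ctrl sENG(M):BMP9 libraries. KO libraries held 632 to 1017 in PBS and 1667 to 2063 with pro:BMP9. The knockout is thus visible in every library, although transcripts remained, and more of them with ligand (114.5 to 129.8 CPM) than in PBS (40.1 to 60.0 CPM). None of 10 endothelial markers (including *Pecam1*, *Cdh5* and *Icam2*) was at 0 in any library, and their summed level was 3297 to 7238 CPM. The 10 mural and fibroblast markers were also above 0 in every library, and their summed level was 102.7 to 825 CPM. The 6 epithelial and leukocyte markers summed to 36.7 to 50.4 CPM. Of the latter, *Cd68* made up most, with group means of 32.7 to 36.2 CPM, *Lyz2* had 6.81 to 8.30 CPM and *Cdh1* 1.47 to 2.06 CPM. *Sftpc* was at 0 in all 16 libraries, and *Epcam* and *Ptprc* had at most 4 and 5 counts. In bulk RNA, fewer cells of a type and less RNA per cell cannot be told apart.

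In Ctrl PBS cells, *Fstl1*, a secreted glycoprotein of the follistatin family by sequence, had the highest level per gene length. Its level was 152.8 ± 8.31 CPM per kilobase (SD, n = 4), the largest part of the summed level of the 7 genes in each group. *Nbl1* followed at 30.9 ± 2.49, *Twsg1* at 26.8 ± 3.04, *Fst* at 22.8 ± 9.28, *Grem1* at 20.9 ± 4.34 and *Bmper* at 5.33 ± 2.69 CPM per kilobase. *Fstl1* lay above *Nbl1*, *Nbl1* above *Twsg1* and *Grem1* above *Bmper* in 16 of 16 libraries. The order of *Twsg1*, *Fst* and *Grem1* did not exceed their spread: *Twsg1* was above *Fst* in 11 of 16 libraries, and *Fst* above *Grem1* in 7 of 16.

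Only *Nog* lay at the count floor in PBS. All 4 Ctrl PBS and all 4 KO PBS libraries held 0 or 1 *Nog* count, at or under 3 counts, and each of these groups had 1 count in all. The lowest count of any other gene of the 7 in any library was 181, for *Bmper* in Ctrl PBS of isolation 2. After ligand, *Nog* reached 5.52 ± 4.45 CPM per kilobase in Ctrl cells and 1.96 ± 1.62 in KO cells, and *Bmper* was above *Nog* in 13 of 16 libraries. Added up, the 7 genes came to 259.4 ± 4.40 CPM per kilobase in Ctrl PBS and 272.1 ± 11.5 after sENG(M):BMP9. KO cells had 253.1 ± 8.45 in PBS and 264.9 ± 8.41 after pro:BMP9.

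**Figure D1:**
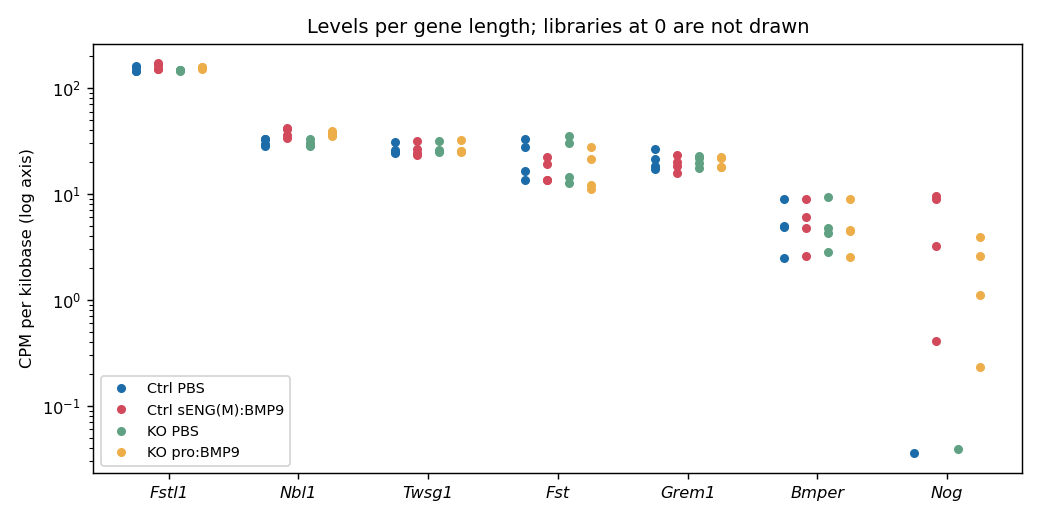
Level of the 7 genes in CPM per kilobase of gene length (log axis) in each library of the 4 groups; each point is a library and libraries at 0 are not drawn. *Fstl1* is highest in every library, *Twsg1*, *Fst* and *Grem1* overlap, and *Nog* is at or near 0 in PBS and between 0.232 and 9.53 CPM per kilobase after ligand.

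In Ctrl cells, sENG(M):BMP9 raised *Nog* and *Nbl1* and lowered *Fst*, and the other 4 genes did not pass the test. In KO cells given pro:BMP9 the same 3 genes passed in the same directions. Calls are those of the quasi-likelihood test of edgeR with a block for the isolation, at an adjusted p (Benjamini-Hochberg over 15693 tested genes) under 0.05. The 3 of 7 called in Ctrl cells stand beside 9.69% of all tested genes (5.86% higher, 3.83% lower), and the 3 of 7 in KO cells beside 5.59% (3.68% higher, 1.92% lower). Both counts include *Nog*, which passed the filter on low counts only through its ligand-treated libraries. Over the 7 genes the median log2 fold change was 0.06 in Ctrl and 0.01 in KO cells, against −0.01 and 0.0004 over all tested genes. In Ctrl cells the ranges of the groups did not overlap for *Nog* and *Nbl1* (4.01% of all tested genes), and in KO cells for *Nog*, *Nbl1* and *Fstl1* (2.67%).

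Noggin is the classical antagonist of BMP2 and BMP4. Its transcript was counted 272, 226, 93 and 12 times in Ctrl sENG(M):BMP9 libraries of isolations 1 to 4, and 96, 70, 29 and 6 times in KO pro:BMP9 libraries. Every ligand-treated library was above every PBS library, and isolation 4 was lowest in both. Against the floor of 3 counts per library, the observed level was 3.83-fold (isolation 4) to 82.9-fold (isolation 1) higher in Ctrl cells, and 2.22-fold to 34.8-fold higher in KO cells. These are lower bounds for the PBS side only. They leave out the counting error of the ligand-treated libraries, which matters most at the 12 and 6 counts of isolation 4. The level reached differed between isolations. The adjusted p from edgeR was 3.68e-11 in Ctrl and 1.01e-08 in KO cells. *Nog* passed the filter on low counts only through its ligand-treated libraries, and was not tested when only the KO libraries were fitted. Its entry into the test was thus tied to the response, so these p-values add no separate support to the counts. Isolation 1 held 23.3 times the level of isolation 4 among Ctrl sENG(M):BMP9 libraries and 16.9 times among KO pro:BMP9 libraries. The 7 canonical BMP targets, such as *Id1* and *Smad6*, were all higher with ligand in isolation 4 of Ctrl cells, by 1.79 (*Id3*) to 4.02 (*Atoh8*) on the log2 scale, and 2 of the 7 (*Smad6* and *Smad7*) had their smallest response there. These targets were looked at by isolation after their values were seen. Why *Nog* was low in isolation 4 was not tested.

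NBL1, also known as DAN, is the founding member of the family that gremlin belongs to. *Nbl1* stood at 57.3, 59.7, 67.6 and 66.5 CPM in Ctrl PBS and at 72.8, 84.2, 86.2 and 68.0 CPM in Ctrl sENG(M):BMP9. All ligand-treated libraries were above all PBS libraries, with isolation 4 barely so. The log2 fold change was 0.31 ± 0.06 (SE, adjusted p = 0.00151) and was positive in 4 of 4 isolations, from 0.03 in isolation 4 to 0.49 in isolation 2. KO cells showed 58.6, 58.1, 67.0 and 61.8 CPM in PBS and 76.5, 73.8, 79.2 and 72.5 CPM with pro:BMP9. Here too the groups did not overlap, and the log2 fold change of 0.30 ± 0.06 (adjusted p = 0.00319) was positive in 4 of 4 isolations. Both calls were lost without the isolation as a replicate block (adjusted p = 0.131 in Ctrl and 0.273 in KO cells).

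*Grem1*, the other DAN family gene, did not pass in either cell type. Its level was 70.8 to 110.9 CPM in Ctrl PBS and 66.0 to 97.1 CPM with sENG(M):BMP9, and 73.4 to 95.6 and 74.0 to 93.2 CPM in the KO groups, all of which overlap. The log2 fold change was −0.10 (95% interval −0.30 to 0.10, adjusted p = 0.653) in Ctrl cells and −0.03 (−0.24 to 0.17, adjusted p = 0.958) in KO cells.

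Follistatin neutralises activins and, more weakly, several BMPs. *Fst* stood at 127.7, 152.6, 62.3 and 76.0 CPM in Ctrl PBS and at 88.2, 102.3, 62.6 and 61.7 CPM in Ctrl sENG(M):BMP9. It was lower with ligand in 3 of 4 isolations and level in isolation 3. The groups overlap, since isolations 1 and 2 were well above isolations 3 and 4 in PBS. The log2 fold change was −0.35 ± 0.09 (adjusted p = 0.0183). In KO cells the values were 138.7, 162.5, 57.7 and 65.9 CPM in PBS and 98.5, 127.7, 50.9 and 56.0 CPM with pro:BMP9. Each KO isolation was lower with ligand, by a fitted log2 value of −0.32 ± 0.09 (adjusted p = 0.0473). Over the alternatives run, the *Fst* calls were lost more often than those of *Nog* and *Nbl1*: DESeq2 with the same block gave adjusted p = 0.0669 in Ctrl and 0.138 in KO cells, and they were lost in Ctrl cells without isolation 1 or 2 and in KO cells without isolation 1, 2 or 4.

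*Fstl1* was higher with ligand in all 8 pairs of libraries, by little. Ctrl PBS libraries held 788.4, 718.9, 712.4 and 783.9 CPM and Ctrl sENG(M):BMP9 libraries 839.1, 749.7, 736.9 and 813.7 CPM. KO PBS libraries held 707.7 to 730.5 CPM and KO pro:BMP9 libraries 751.8 to 775.0 CPM, without overlap. The log2 fold changes of 0.06 (95% interval −0.01 to 0.13, adjusted p = 0.329) and 0.08 (0.01 to 0.15, adjusted p = 0.264) did not pass the test. In the average of both responses, a comparison added after the values were seen, *Fstl1* had 0.07 ± 0.02 with adjusted p = 0.0563. The genes called in that average (edgeR) were *Nog*, *Nbl1* (0.30 ± 0.04, adjusted p = 3.29e-05) and *Fst* (−0.34 ± 0.07, adjusted p = 0.00113), 3 of 7 beside 13.1% of all tested genes. The average is formed from the same libraries as both responses, so these calls are no separate support.

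BMPER and twisted gastrulation are the chordin-related modulators. *Bmper* ranged over 11.9 to 43.3 CPM in Ctrl PBS and 12.5 to 43.6 CPM in Ctrl sENG(M):BMP9, and over 13.7 to 45.4 and 12.2 to 43.7 CPM in KO cells. Its log2 fold change was 0.08 (95% interval −0.08 to 0.24, adjusted p = 0.657) in Ctrl cells and −0.05 (−0.21 to 0.11, adjusted p = 0.903) in KO cells. *Twsg1* showed 126.7 to 160.7 CPM in Ctrl PBS and 119.1 to 164.0 CPM with ligand, which gave −0.02 on the log2 scale (−0.10 to 0.06, adjusted p = 0.878). In KO cells the change was 0.01 (−0.07 to 0.08, adjusted p = 0.984). For *Twsg1* these intervals leave room for a change of at most 0.10 on the log2 scale in either direction.

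**Figure D2:**
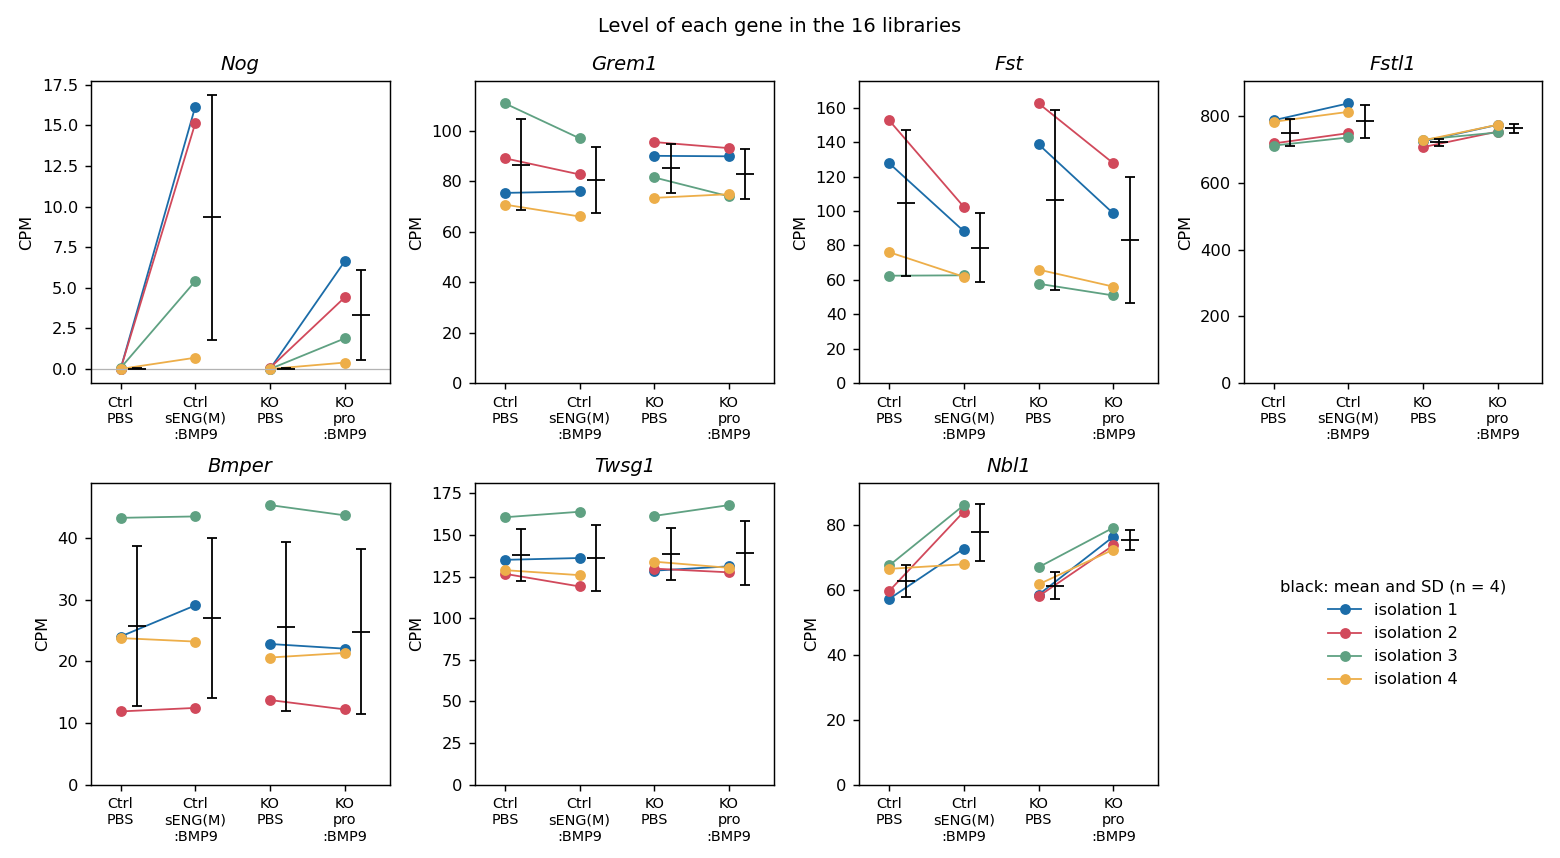
CPM of the 7 genes (y axes, from 0 except for a margin in the *Nog* panel) in the 4 groups (x axis); coloured points are libraries, lines join PBS and ligand of the same isolation, and black marks give the mean and SD of 4 libraries. *Nog* and *Nbl1* are higher with ligand in 8 of 8 pairs and *Fst* lower in 7 of 8, while *Bmper* and *Twsg1* are highest in isolation 3 in each of the 4 groups.

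**Figure D3:**
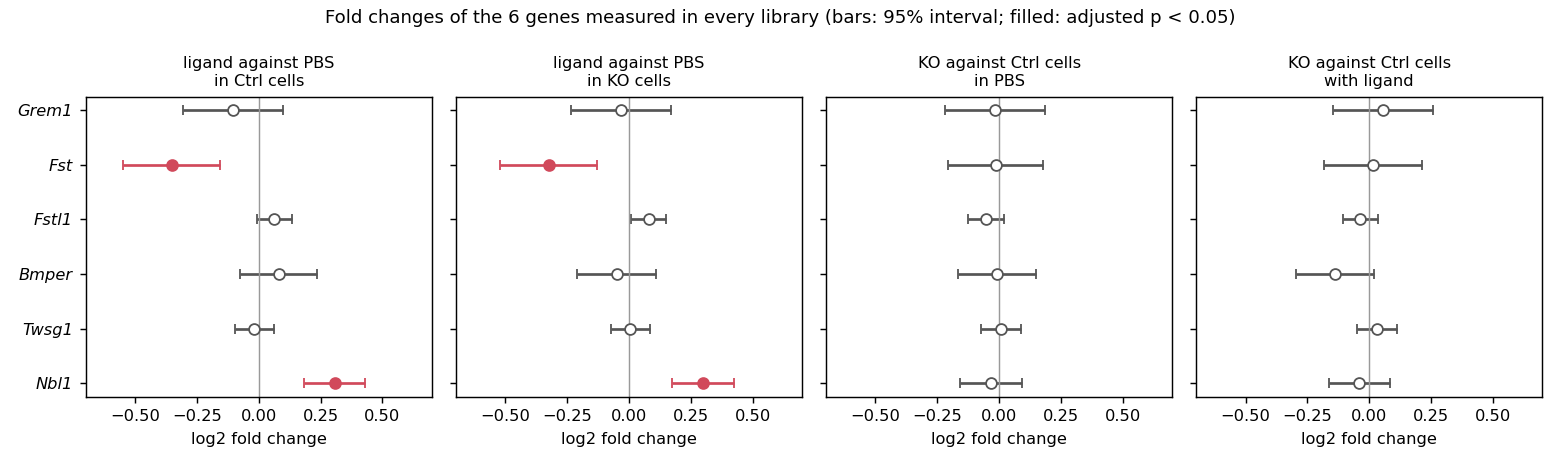
Log2 fold changes (x axis) with 95% intervals of the 6 genes above the floor in PBS, in 4 comparisons; filled red points have an adjusted p under 0.05. *Fst* and *Nbl1* are called in both ligand comparisons, and none of the 6 between KO and Ctrl cells. *Nog* is left out because its PBS libraries lie at the floor.

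In PBS, loss of *Eng* was accompanied by no called change among the 7 genes (0 of 7, beside 0.0191% of all tested genes), and none had an unadjusted p under 0.05 in edgeR (DESeq2 with the same block also called 0). The adjusted p lay between 0.809 and 0.999. *Nog* was at the floor in both groups, so no fold is given. The 95% intervals of the other 6 genes stayed within −0.22 and 0.18 on the log2 scale, the widest being those of *Grem1* and *Fst*. *Grem1* was lower in KO than in Ctrl cells of isolation 3 (log2 difference −0.44 in PBS and −0.39 with ligand) and 0.05 to 0.26 higher in the other 3 isolations.

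With ligand, *Nog* was the only gene of the 7 that differed (1 of 7, beside 0.255% of all tested genes). KO pro:BMP9 cells had 41.0%, 29.1%, 34.8% and 56.6% of the *Nog* level of the Ctrl sENG(M):BMP9 cells of the same isolation. It was lower in 4 of 4 isolations, but the ranges of the groups overlap, 0.693 to 16.2 CPM in Ctrl and 0.393 to 6.62 CPM in KO cells. In isolation 4 the ratio rests on 6 counts in KO against 12 in Ctrl cells, where counting error is large. The log2 fold change was −1.48 ± 0.17 (edgeR, 95% interval −1.85 to −1.11, adjusted p = 9.09e-04). *Nog* entered the test only through its ligand-treated libraries. The 7 genes were also chosen with earlier results known, and the paper names *Nog* among the largest changes of this comparison. The call and the 1 of 7 thus add no separate support to the values within isolations. The call rests on comparing within isolations and on isolation 2: the adjusted p was 1 without the replicate block and 0.0578 without isolation 2, where the log2 fold change was −1.32. Of the other 6 genes, *Bmper* had the largest difference, −0.14 (−0.30 to 0.02, adjusted p = 0.63), and *Fstl1*, *Nbl1*, *Twsg1*, *Fst* and *Grem1* were within 0.06 of 0.

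The difference of the ligand responses between KO and Ctrl cells was called for 0 of 7 genes in edgeR, beside 0% of all tested genes; none of the 7 had an unadjusted p under 0.05, and DESeq2 called 0 as well. For *Nbl1* it was −0.01 (95% interval −0.18 to 0.17) and for *Fst* 0.03 (−0.25 to 0.30), so for *Fst* the interval admits a difference nearly as large as the response. *Nog* gave no usable value, because its PBS libraries are at the floor in both cell types.

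**Figure D4:**
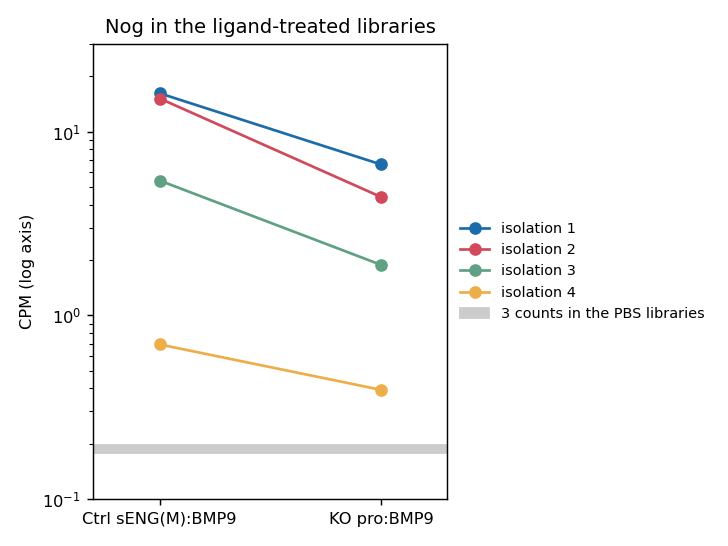
*Nog* in CPM (log axis) in the Ctrl sENG(M):BMP9 and KO pro:BMP9 libraries; lines join libraries of the same isolation, and the grey band marks 3 counts in the PBS libraries. The 4 lines all fall from Ctrl to KO, and isolation 4 lies closest to the floor.

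All 7 genes differed between the 4 isolations (edgeR's quasi-likelihood test of the isolation term, adjusted p under 0.05 for 7 of 7), as did 69.7% of all tested genes. The call of *Nbl1* (adjusted p = 0.0462) was lost with RLE size factors or without isolation 1 or 3, that of *Fstl1* (0.0272) without isolation 1 or 2, that of *Twsg1* without isolation 3 and that of *Grem1* (0.0112) without isolation 4. The size of the difference set the genes apart from one another. *Nog* spanned the most, 21.0-fold between the means of isolations 1 and 4 (adjusted p = 1.38e-09), with the PBS libraries of every isolation at the floor. *Bmper* spanned 3.50-fold, from 12.6 CPM in isolation 2 to 44.0 CPM in isolation 3 (means of 4 libraries, adjusted p = 2.25e-12). *Fst* spanned 2.34-fold, from 58.4 CPM in isolation 3 to 136.3 CPM in isolation 2 (adjusted p = 1.44e-09). These genes thus ran in opposite directions in isolations 2 and 3. *Twsg1* was high in isolation 3 as well, at 163.5 CPM against 125.8 to 132.8 CPM in the others (adjusted p = 1.24e-07), and *Grem1*, *Nbl1* and *Fstl1* spanned 1.27-fold, 1.13-fold and 1.07-fold. The isolation accounted for 97.8% of the variance of log2 CPM of *Bmper*, 94.7% of *Twsg1* and 85.4% of *Fst*, but 9.33% of *Nog* and 14.6% of *Nbl1*, for which the group accounted for 81.8% and 70.0%. For *Nog* these shares include the 8 PBS libraries at the floor.

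Cell type markers moved with the isolations. The 10 endothelial markers summed to 3297 to 3562 CPM in isolation 3 and to 7149 to 7238 CPM in isolation 2, with isolations 1 and 4 between them. Those of mural cells and fibroblasts summed to 720.3 to 823.2 CPM in isolation 3 and 102.7 to 117.7 CPM in isolation 2, and to 606.7 to 825 and 417 to 642.9 CPM in isolations 1 and 4. *Bmper* and *Twsg1* were thus highest where endothelial markers were lowest, and *Bmper* was lowest where mural markers were lowest. In isolation 1, where mural and fibroblast markers reached levels like those of isolation 3, *Bmper* stood at 24.5 CPM, against 44.0 CPM in isolation 3. *Twsg1* stood at 132.8 CPM in isolation 1, against 163.5 CPM in isolation 3. The part of these markers in the levels of *Bmper*, *Twsg1* and *Fst* was not tested. Of the mural and fibroblast markers, edgeR called 1 of 10 lower in KO than in Ctrl cells in PBS, beside 0.0191% of all tested genes. With ligand it called 2 of 10 lower, beside 0.255% (median log2 fold change −0.25 in PBS and −0.36 with ligand). At an unadjusted p under 0.05 in edgeR, 6 of 10 differed in PBS and 8 of 10 with ligand. Of all 15693 tested genes, 1071 and 1454 did. The part of these markers in the lower *Nog* level was not tested.

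**Figure D5:**
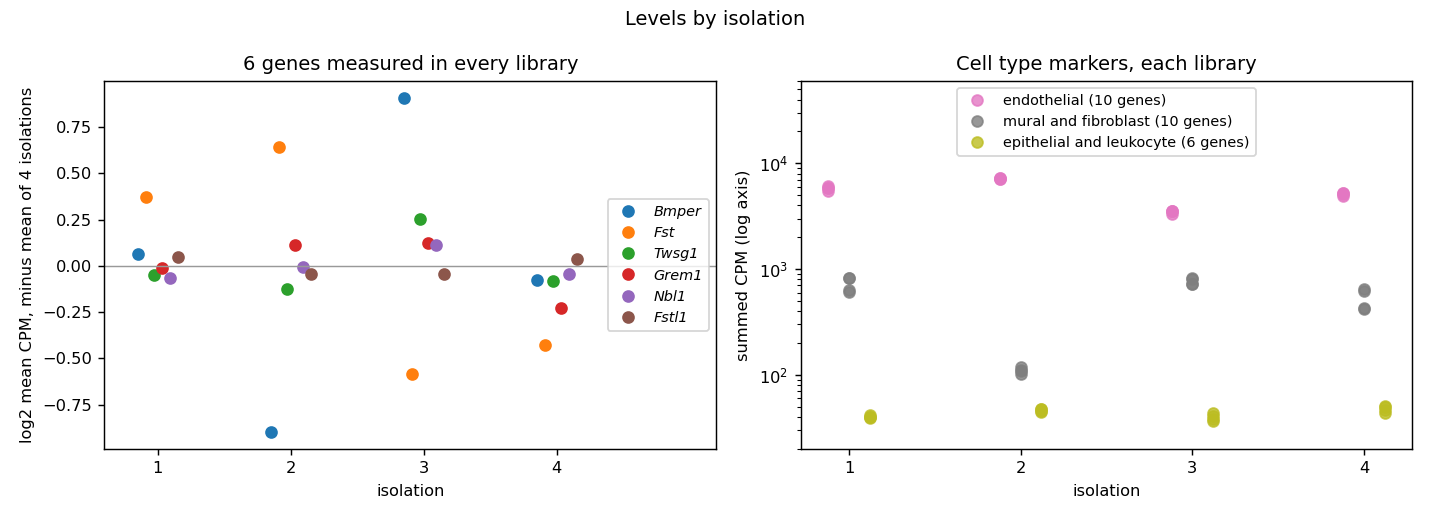
Left: log2 of the mean CPM of each gene in each isolation, minus its mean over the 4 isolations (each point a mean of 4 libraries). Right: summed CPM (log axis) of cell type markers in each library. *Bmper* and *Fst* lie on opposite sides in isolations 2 and 3, and isolation 2 has the lowest mural and fibroblast markers.

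Most other secreted antagonists and binding proteins were too low to test. Of 20 (such as *Chrd* and *Sost*), 9 passed the filter, 1 was higher with ligand in Ctrl cells and 0 in KO cells (edgeR; 0 at an unadjusted p under 0.05, and 0 in DESeq2), with a median log2 fold change of −0.01 and −0.004. The gene was *Fstl3*, a follistatin-related activin antagonist, with 0.41 ± 0.09 (adjusted p = 0.00449) in Ctrl cells and 0.09 ± 0.09 (adjusted p = 0.806) in KO cells. Among 8 surface regulators, 7 were tested. *Bambi*, a pseudoreceptor that dampens BMP and TGF-β signals, rose in Ctrl (1.32 ± 0.15, adjusted p = 4.55e-06) and KO cells (0.89 ± 0.15, adjusted p = 8.55e-04). *Sdc3*, a heparan sulphate proteoglycan, was called in Ctrl cells (0.14 ± 0.04, adjusted p = 0.0152). In KO cells *Sdc3* was higher in 4 of 4 isolations but not called (0.10 ± 0.04, adjusted p = 0.135). Between KO and Ctrl cells with ligand, edgeR called 0 of the 9 secreted and 0 of the 7 surface genes (1 and 2 at an unadjusted p under 0.05).

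Among 12 ligands that these proteins can bind, 8 were tested. *Bmp4*, which noggin and gremlin bind, rose by 0.95 ± 0.04 (adjusted p = 4e-11) in Ctrl and 0.66 ± 0.04 (adjusted p = 1.19e-08) in KO cells. With ligand, *Bmp4* was lower in KO than in Ctrl cells (−0.29 ± 0.04, edgeR adjusted p = 0.00835), 1 of 8 ligands beside 0.255% of all tested genes. *Bmp6* rose by 0.25 ± 0.07 (adjusted p = 0.0291) in Ctrl cells, a call that DESeq2 with the same block did not make (adjusted p = 0.0546). In KO cells its change of 0.14 ± 0.07 was not called (adjusted p = 0.409). *Inhba*, the activin A subunit that follistatin binds, fell in both cell types, with −0.52 ± 0.09 (adjusted p = 8.01e-04) in Ctrl and −0.42 ± 0.09 (adjusted p = 0.00841) in KO cells. Of 7 canonical BMP targets, 7 rose in each cell type (median log2 fold change 2.64 and 2.59), and 0 were called between KO and Ctrl cells with ligand in edgeR (2 at an unadjusted p under 0.05, and 1 in DESeq2).

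Over the 16 libraries (log2 CPM, Pearson's r, as a description; the libraries share isolations and treatments), *Nog* was most like *Prkar2a* (r = 0.974), *Ubtf* (0.974) and *Orai2* (0.966). *Nbl1* was most like *Clcf1* (0.94), *Cebpb* (0.925) and *Klhl21* (0.924). The nearest genes of *Fst* were *Tnfrsf11a* (0.981), *Abhd17b* (0.976) and *Pgf* (r = 0.975), and those of *Fstl1* included *Med14* (0.891) and *Pds5a* (0.832). *Bmper* ran with *Mrc2* (0.986), *Egfr* (0.986) and *Ank3* (0.985), *Twsg1* with *Aldh7a1* (0.966), *Ltbp1* (0.955) and *Clmp* (0.952), and *Grem1* less closely with *Ap3s1* (0.847), *Gm10252* (0.844) and *Rragc* (0.827). Within the 7 genes, *Bmper* and *Twsg1* (r = 0.881) and *Nog* and *Nbl1* (r = 0.838) were the closest pairs, and *Bmper* and *Fst* the most opposed (r = −0.731).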

How the data were processed

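RNA was sequenced from 16 libraries of MLECs, 4 groups of 4 isolations, and libraries were grouped by their labels. The authors deposited raw read counts, not normalised. The submitters' processing notes name HISAT2 2.0.5, featureCounts 1.5.0-p3 and DESeq2 1.26.0, and the build is GRCm39; the annotation release is not given in the sources used here. Counts were tested in R 4.3.3 with edgeR 4.0.16 (filterByExpr with minimum count 10 and minimum total 15, TMM, quasi-likelihood, all 16 libraries, isolation as a block), which tested 15693 genes, and p-values were adjusted by Benjamini-Hochberg. Same-numbered libraries come from the same isolation, and their deviations from the group means correlate (mean r = 0.757 over 24 pairs), so they were treated as paired. CPM use TMM library sizes, and CPM of single isolations on the log2 scale use a prior count of 2. The floor is 3 counts. In the bounds for *Nog* the floor covers counting error only, and only on the PBS side. The 95% intervals of fold changes come from edgeR and include the spread between libraries.

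Alternatives were no block, DESeq2 1.42.0 with the block, RLE size factors, no filter, at least 10 counts in every library, only the libraries of the comparison, quantile normalisation with ComBat (sva 3.50.0) and DESeq2, and leaving out each isolation. The average of both ligand responses was added after the data were seen. The procedure was tested on simulated data, in which no changed gene lay at the count floor without the change. That test therefore does not cover *Nog*, which lay at the floor in PBS. The 7 genes and all gene lists were chosen with earlier results of these data known. Text names the 7 genes, up to 4 genes of a list that passed in a ligand comparison, the 3 genes nearest to each by correlation (1 of them is not reported here), and *Eng*; the BMP targets by isolation were chosen after their values were seen. All count columns matched a sample. Marker and pathway lists were written from general knowledge.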

Additional observations from a re-analysis of the deposited data

Results flagged for a closer look

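*Twsg1* had 1 library far from the others in both KO groups. In KO PBS, isolation 3 stood at 161.5 CPM against 128.6 to 134.0 CPM in the other 3, with a gap of 0.836 of the whole range. In KO pro:BMP9, isolation 3 stood at 168.0 CPM against 127.6 to 131.2 CPM, with a gap of 0.909 of the range. Both are past Dixon's critical value for 4 samples, and chance gives such a gap in about 1 group in 20. Every gene was scanned in every group, except *Nog* in PBS, so such gaps can arise by chance among them. Both flags concern the same isolation of the same gene and are not independent. The same isolation was highest in the Ctrl groups, at 160.7 and 164.0 CPM. It also had the lowest summed endothelial markers (3297 to 3562 CPM), whose part in the level of *Twsg1* was not tested.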

How the results depend on the processing

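Without the replicate block, 1 of 7 genes (*Nog*) was called for the ligand in Ctrl cells, 1 in KO cells (*Nog*) and 0 between KO and Ctrl cells with ligand; by construction the isolation then adds to the spread. KO against Ctrl cells with ligand also gave 0 of the 6 genes with at least 10 counts in every library, which leaves *Nog* untested, and 0 to 1 when each isolation was left out (0 without isolation 2). Fitting only the libraries of the comparison left *Nog* untested for the ligand in KO cells and between PBS groups. *Fst* was lost without the block, in DESeq2 and in 2 of 4 Ctrl and 3 of 4 KO settings that left out an isolation, and *Nbl1* only without the block. *Fstl1* passed in KO cells with quantile normalisation, ComBat and DESeq2 (adjusted p = 0.00581), and in the average also without a filter (0.0435). Genes called overall moved from 1521 (Ctrl ligand) and 878 (KO ligand) to 167 and 91 without the block, from 2056 to 372 for the average, from 40 (KO against Ctrl with ligand) to between 1 (no block) and 517 (no filter), from 3 (in PBS) to between 1 and 204, and from 0 (difference of responses) to 52 without a filter. *Nog* at 6 or 12 counts in isolation 4 limits what can be said of that isolation.

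Signs changed only for differences that were not called, and the cause was not tested. *Grem1* in PBS (KO against Ctrl) was 0.011 with quantile normalisation, ComBat and DESeq2, *Fst* in PBS 0.021 without the block, and *Fst* with ligand −0.00044 in DESeq2. When each isolation was left out, KO against Ctrl differences in PBS ran from −0.11 to 0.14 for *Grem1*, −0.066 to 0.045 for *Fst*, −0.059 to 0.057 for *Bmper* and −0.0088 to 0.031 for *Twsg1*. With ligand they ran from −0.014 to 0.20 for *Grem1*, −0.098 to 0.12 for *Fst* and −0.081 to 0.0073 for *Nbl1*. Differences of responses ran from −0.047 to 0.11 for *Fst* and −0.075 to 0.037 for *Nbl1*. Ligand responses of *Twsg1* ran from −0.035 to 0.0053 in Ctrl, −0.013 to 0.020 in KO and −0.024 to 0.0087 on average, and that of *Bmper* from −0.024 to 0.031 on average.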
